A study of Rattus norvegicus with 36 samples.

Results

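Pineal glands of rats with decentralized superior cervical ganglia (DCN) were compared between night and day, in the 6 libraries of 36 that carry the DCN label, 3 taken at mid-night (ZT19) and 3 at mid-day (ZT7). The study asked how surgical removal of neural input changes the pineal transcriptome. Sprague-Dawley pups of both sexes were operated on postnatal day 5, kept under a light-dark cycle and killed at day 40. The DCN rats had the cervical sympathetic trunk cut just before the ganglion and a stretch of the chain removed on both sides, so the ganglia and their endings in the pineal gland were left in place but cut off from the brain. SCGX rats had both ganglia removed, Sham rats had the ganglia exposed only, and Control rats had no surgery. Each of these groups holds 3 libraries at ZT7 and 3 at ZT19, every library a pool of glands from several rats, so p-values measure the spread between pools. Other libraries of the series hold cultured glands left untreated or given norepinephrine (NE) or dibutyryl cyclic AMP (DBcAMP), and pools of pineal gland or mixed tissue. Per the paper, the cultured glands came from other rats, older and all female, and were kept in culture before treatment.

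The pineal gland makes melatonin at night. The clock of the suprachiasmatic nucleus drives the superior cervical ganglia through the spinal cord, and the ganglia release norepinephrine in the gland. Adrenergic receptors of pinealocytes then raise cyclic AMP, which activates transcription of many genes. In DCN glands the endings can still take up norepinephrine, whereas in SCGX glands the endings are lost. The tables give genes by Ensembl rat identifier only, and no identifier could be paired with a symbol here. The genes are therefore described by their behavior in groups of libraries, and the known functions, pathway lists and cell type markers were not analysed here. In pooled tissue, fewer cells of a type and less RNA per cell cannot be told apart.

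Read-pairs on genes numbered from 14329403 to 15893427 in the 6 DCN libraries. Levels are given as normalized read-pair counts scaled to a common library size (CPM). DCN day replicate 1 stood apart from the other DCN libraries. In it, 546 genes were more than 2-fold above each of the other 5, against 1 to 19 genes in any other DCN library. Of those 546, 458 (83.9%) belonged to the 2130 genes at least 8-fold higher in mixed non-pineal tissue than in pineal gland. The mixed-tissue genes that were tested in DCN summed to 8874 CPM in this library and to between 2569 and 3071 CPM in the other 5. They numbered 947, and 741 mixed-tissue genes were tested without day replicate 1. The counts of that library thus brought some genes into the sum, which favors a gap. Sham night replicate 3 was the other in vivo library above the rest, and the remaining 22 lay between 2105 and 3679 CPM. The 177 tested pineal-enriched genes, the reverse list, summed to 54697 CPM in DCN day replicate 1, inside the DCN range of 52042 to 66082 CPM. The main DCN results are therefore given with and without day replicate 1, and its part in the others was not tested.

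**Figure D1:**
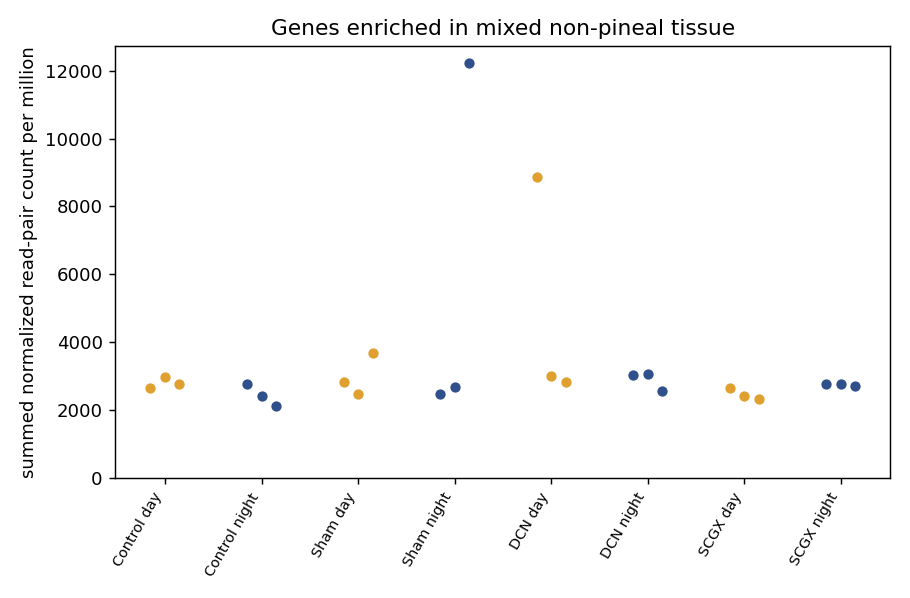
Summed level of the mixed-tissue genes tested in DCN (y axis, CPM) in each of the 24 in vivo libraries (points, 3 per group in replicate order, orange for day and blue for night). DCN day replicate 1, at 8874 CPM, and Sham night replicate 3 stand above the other 22 libraries. Some of the genes were tested only through the counts of DCN day replicate 1, which favors its height.

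No single gene passed the test between night and day in the DCN glands by themselves. Of 15927 genes tested by edgeR's quasi-likelihood test, 0 (0%) reached adjusted p < 0.001 and 0 (0%) reached adjusted p < 0.05. At an unadjusted p below 0.05 there were 1431 genes (8.98%), 731 higher at night (4.59%) and 700 lower (4.4%). Night and day libraries did not overlap for 1324 genes that were higher at night (8.31%) and 1087 that were lower (6.82%). Leaving out day replicate 1 lowered the biological coefficient of variation from 20.1% to 15.1% and again gave 0 genes at adjusted p < 0.05 (0%), with 1039 genes at an unadjusted p below 0.05 (6.63%), 603 higher (3.85%) and 436 lower (2.78%). DESeq2 applied to the same 6 libraries called 105 genes at adjusted p < 0.05, 69 of them higher at night.

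For most genes the data limited the night/day difference to within 2-fold, which leaves room for smaller differences. For 11629 genes (73.0%) the 95% interval of the night/day difference lay within 2-fold in both directions, and 11412 genes (72.8%) did so without day replicate 1. The median interval extended 0.37 on the log2 scale to either side of the estimate, or 0.39 without that library.

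The genes that rise at night in innervated glands were slightly higher at night in DCN glands as well. Night genes were taken as those at adjusted p < 0.001 and FC > 4 at night in both the Control and the Sham comparisons, which use no DCN library. There were 146 such genes and 14 day genes chosen in the same way in the opposite direction, and 143 and 14 of them were tested in DCN. The night genes had a median night minus day log2 fold change of 2.98 in the Control libraries and 2.87 in the Sham libraries. The DCN libraries gave 0.38, with quartiles of 0.12 and 0.61, beside a median of -0.01 over all genes tested.

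Of the 143 night genes 123 (86.0%) were higher at night in DCN, beside 48.4% of all genes tested. At an unadjusted p below 0.05, 61 night genes were higher and 2 were lower, or 42.7% and 1.40% of them, beside 4.59% and 4.4% of all genes tested. The night and day libraries did not overlap for 61 genes in the Control direction and for 2 in the opposite direction, or 75 and 3 without day replicate 1. Over all genes tested with the 6 libraries these shares were 8.31% and 6.82%. Without day replicate 1, 1939 and 1772 of all 15673 genes tested did not overlap, as fewer libraries separate more readily. No night gene passed at adjusted p < 0.05 in the 6-library test. Without day replicate 1 the median was 0.39, 132 of 142 genes were positive, and 45 reached an unadjusted p below 0.05, all of them positive.

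The 14 day genes had a median night minus day log2 fold change of -2.83 in Control and -0.29 in DCN, where 11 were lower and 3 were higher at night. Of these 4 had an unadjusted p below 0.05, all lower. Without day replicate 1 the median was -0.34 and 12 of the 14 were lower. The median was -0.09 without day replicate 3 and -0.11 without night replicate 3.

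The residual difference was a small share of the intact one. As a percentage of the Control log2 fold change, the DCN value of the night genes had a median of 12.5% and quartiles of 3.77% and 20.9%. It exceeded 25% of the Control value for 15 night genes and 50% for 1. Without day replicate 1 the median share was 13.2%, with 16 genes above 25% and 1 above 50%. The upper end of the 95% interval in DCN was below the Control estimate for 142 of the 143 genes, and below 4-fold for 137. The interval lay within 2-fold in both directions for 87 of them (60.8%), and for 9 of the 14 day genes. For the night genes it extended a median of 0.44 to either side of the estimate on the log2 scale. For the day genes the median share was 7.69%, and 11.05% without day replicate 1.

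**Figure D2:**
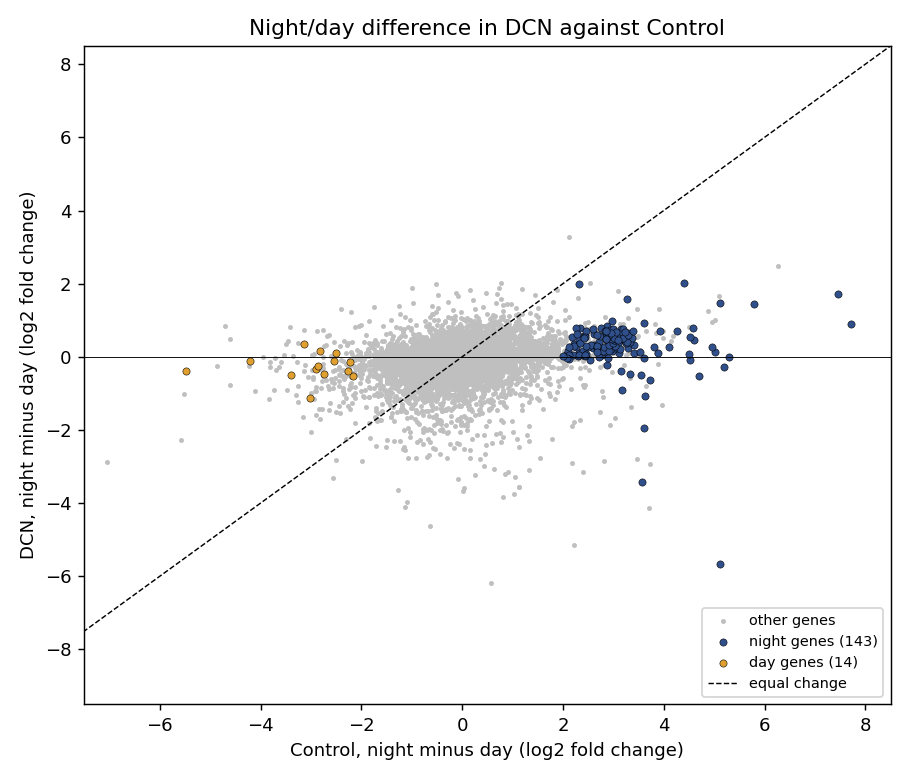
Night minus day log2 fold change in DCN (y axis) against Control (x axis) for each gene tested in both, with 143 night genes in blue, 14 day genes in orange and other genes in grey. Most night genes lie just above 0 on the y axis (median 0.38) and far below the dashed line of equal change, and points far below 0 include genes raised in DCN day replicate 1, such as the night gene at -5.66.

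The levels in single libraries show where the remaining difference lies. Relative to the mean of the Control day libraries, the median night gene stood 0.44, 0.33 and 0.44 log2 units higher in the 3 DCN day libraries. In the 3 DCN night libraries it stood 0.74, 0.48 and 0.88 units higher. All DCN night libraries were above all DCN day libraries, and DCN night replicate 2 was only slightly so. Control night libraries stood at 2.97 ± 0.20 (SD, n = 3), Sham day at 0.09 ± 0.01 and Sham night at 3.05 ± 0.22. SCGX glands had the higher daytime value, 1.08 ± 0.14 by day and 0.91 ± 0.07 by night (SD, n = 3 each). The day genes stood at -1.09, -0.87 and -0.56 in DCN day libraries and at -1.07, -0.97 and -1.29 in DCN night libraries, so these overlapped.

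**Figure D3:**
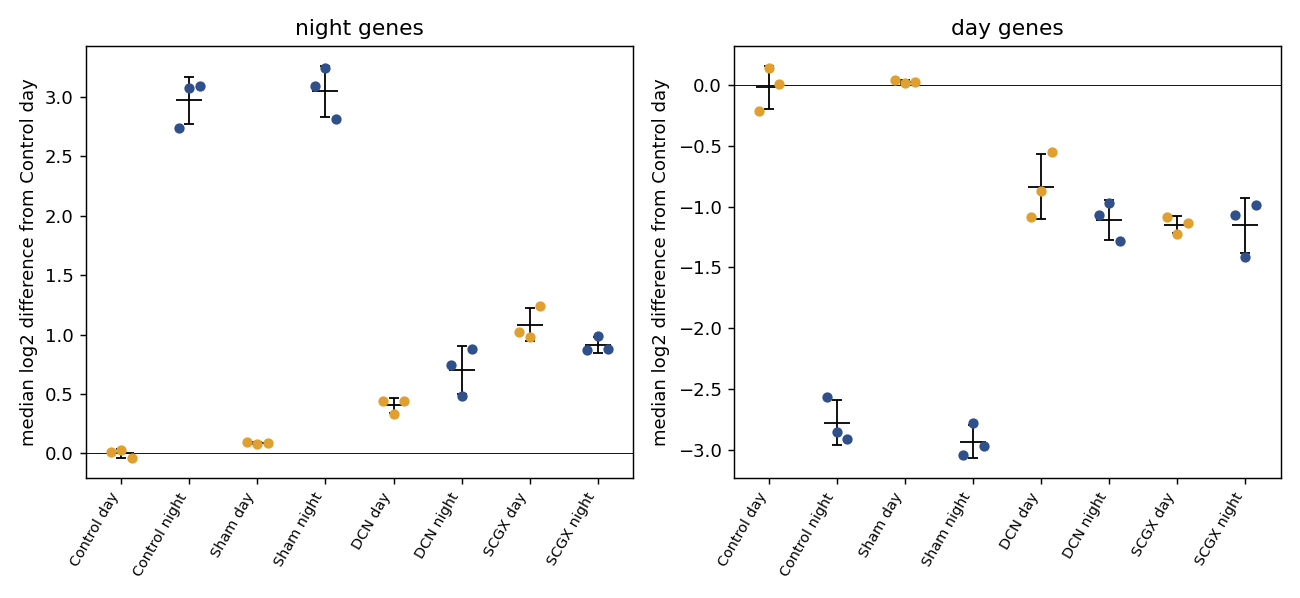
Median log2 difference of the night genes (left) and day genes (right) from the mean of the Control day libraries, for each in vivo library (points, orange for day and blue for night), with the group mean and SD (black, n = 3). DCN night libraries lie above DCN day libraries for the night genes, and SCGX night libraries lie at 0.91 against 1.08 by day.

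DCN night replicate 3 was the highest of the 6 DCN libraries for 67 of the 143 night genes (46.9%), beside 16.7% of all genes tested. Night replicate 1 was highest for 44 (30.8%), beside 18.9% of all genes. In 7 night genes replicate 3 was more than 2-fold above each other DCN library. Without it the median of the night genes was 0.27, with 116 of 143 genes higher at night and 43 at an unadjusted p below 0.05, all higher. Day replicate 1 was highest for 20 night genes and more than 2-fold above the others for 6, and these 6 include the night gene with the lowest DCN value, a log2 fold change of -5.66. That gene was at 59.1 CPM in day replicate 1 and at 0.186 to 0.810 CPM in the other 5 libraries, and its log2 fold change was -0.16 without that replicate.

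The night gene with the largest difference in Control was at 115, 140 and 178 CPM in the DCN day libraries and at 231, 179 and 403 CPM in the DCN night libraries. In Control it was between 8.82 and 12.9 CPM by day and between 1864 and 2673 CPM by night. In DCN the groups did not overlap, by a narrow margin for night replicate 2, and the day level lay above that of Control while the night level lay far below it. Its log2 fold change was 0.90 ± 0.30 (SE) in DCN, 0.76 ± 0.33 without day replicate 1 and 7.71 ± 0.21 in Control, and the difference between DCN and Control passed edgeR's test (adjusted p = 2.07e-06).

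The night gene second in Control was at 8.87, 2.86 and 5.10 CPM in DCN by day and at 6.48, 6.90 and 42.2 CPM by night. The groups overlapped, and 1 night library held most of the difference. Control glands had 7.32 to 8.47 CPM of this gene by day and 1097 to 1727 CPM by night. The 3 night genes that were too low to test in DCN were all at 0.249 CPM or less in each DCN library, day or night, and 1 of them was between 89.8 and 113 CPM in the Control night libraries.

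The size of the residual difference followed the size in Control across the whole range of rhythmic genes. In Control, 1467 genes (9.39%) passed at adjusted p < 0.001. Among those with a Control log2 fold change over 4, 24 of 36 were tested in DCN, and their median in DCN was 0.64. The median was 0.38 for 253 genes between 2 and 4, 0.12 for 308 genes between 1 and 2, and 0.09 for 377 genes between 0 and 1. On the falling side the medians were -0.09 for 209 genes down to -1, -0.15 for 201 genes between -2 and -1, and -0.35 for 76 genes below -2.

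The tests of single genes leaned the same way in every class. In the class over 4, 6 of the 24 genes tested were higher and 1 lower at an unadjusted p below 0.05. Between 2 and 4, 86 genes were higher and 6 lower, and between 1 and 2 the counts were 58 and 4. Between 0 and 1, 60 were higher and 2 lower. Below -2, 1 was higher and 19 lower, and between -2 and -1 there were 0 and 35. Between -1 and 0 there were 5 higher and 36 lower. Among 3983 genes with a Control adjusted p of 0.5 or more, 114 (2.86%) were higher and 106 (2.66%) lower. Over all genes tested the shares were 4.59% and 4.4%.

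Without day replicate 1 the medians were 0.69, 0.38, 0.12 and 0.07 on the rising side and -0.07, -0.15 and -0.39 on the falling side, in the same order of classes. On the rising side 8, 63, 42 and 45 genes were then higher at an unadjusted p below 0.05. The counts of lower genes were 0, 2, 1 and 3. On the falling side 21, 29 and 20 were lower and 3, 2 and 1 higher. Without night replicate 3 the class over 4 had a median of 0.25 over 22 genes, and the class from 2 to 4 had 0.34, so that the top step then no longer appeared.

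**Figure D4:**
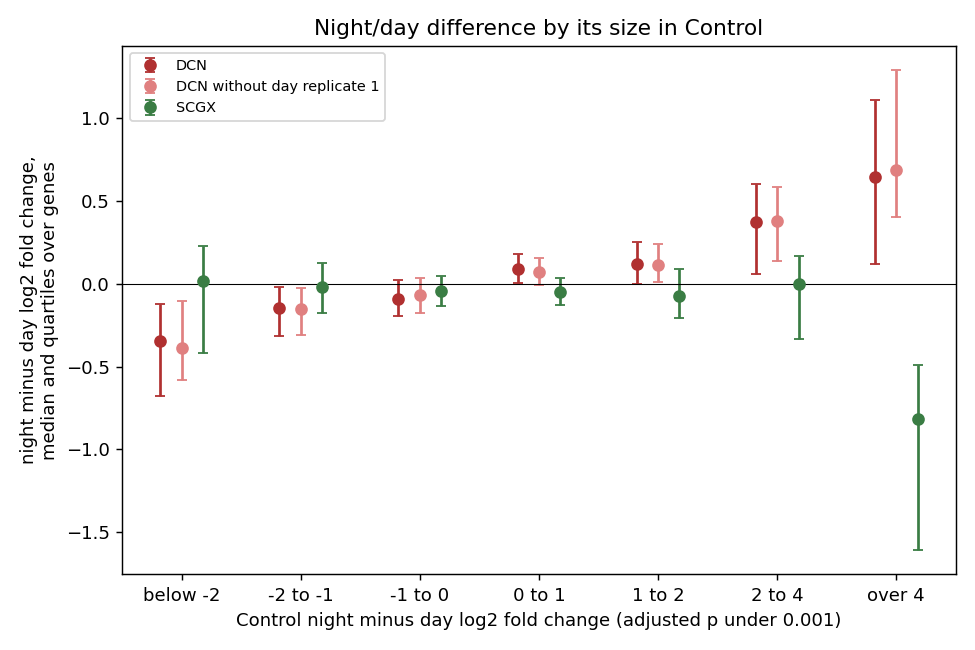
Median (points) and quartiles (bars) over genes of the night minus day log2 fold change (y axis) in DCN, DCN without day replicate 1, and SCGX, for genes at adjusted p < 0.001 in Control grouped by their Control log2 fold change (x axis). DCN medians run from -0.35 to 0.64 in the Control order, and SCGX medians stay near 0 except for -0.82 in the class over 4.

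The genes with the smallest p in DCN mostly had a night/day difference in the innervated glands too. In DCN, 41 genes (0.257%) had an unadjusted p below 0.001, 27 higher and 14 lower at night. In Control, 39 of the 41 differed in the same direction, and 37 did so at adjusted p < 0.05, a level that 35.2% of all genes reached in Control. The other 2 passed in Control in the opposite direction. In Sham, 39 had the same direction and 28 of these passed at adjusted p < 0.05, against 20.7% of all genes in either direction. In SCGX 38 had the same direction and 6 of these passed, where 1.79% of all genes did. Over all genes, 61.1% had the same direction in DCN as in Control, 53.8% as in Sham and 53.4% as in SCGX. Without day replicate 1, 31 genes had an unadjusted p below 0.001, of which 29 had the Control direction, 25 of them at adjusted p < 0.05 in Control.

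Of all genes 4 are identified here, the 2 with the smallest p in each direction. ENSRNOG00000020254, a night gene, was at 9.52, 11.9 and 9.90 CPM in the DCN day libraries and at 36.9, 30.4 and 26.7 CPM in the DCN night libraries, so the groups were well separated. In Control the means were 4.93 ± 1.90 CPM by day and 48.4 ± 7.60 CPM by night (SD, n = 3 each). In DCN the log2 fold change was 1.58 ± 0.15 (SE, adjusted p = 0.118), and 1.52 ± 0.17 without day replicate 1. SCGX glands had 13.0 ± 1.22 CPM by day and 29.9 ± 6.04 CPM by night (SD, n = 3 each). There the log2 fold change was 1.21 ± 0.15 (edgeR adjusted p = 0.00769), and that of DCN exceeded it by 0.37 ± 0.23 (adjusted p = 0.571). Against Sham the DCN log2 fold change was smaller by 2.17 (edgeR interaction -2.17 ± 0.27, adjusted p = 4.60e-04), and against Control the interaction was -1.72 ± 0.31 (edgeR adjusted p = 0.00253). NE in culture raised this gene by 0.38 ± 0.09 on the log2 scale (edgeR adjusted p = 0.00332).

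ENSRNOG00000034066, an abundant gene, was at 1637, 1728 and 1842 CPM in DCN by day and at 3148, 2947 and 3035 CPM by night. Every night library was well above every day library, and the day values were near those of Control, 1724 ± 128 CPM (SD, n = 3). The log2 fold change was 0.81 ± 0.08 (SE, edgeR adjusted p = 0.118) in DCN and 0.77 ± 0.11 without day replicate 1. It was 1.24 ± 0.11 in Control, 1.05 ± 0.15 in Sham and 0.47 ± 0.08 in SCGX. The DCN value differed from Control by -0.46 ± 0.14 (edgeR interaction, adjusted p = 0.0393). It did not pass against Sham, at -0.31 ± 0.19 (edgeR adjusted p = 0.335), or against SCGX, at 0.33 ± 0.12 (adjusted p = 0.408).

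ENSRNOG00000020525 was at 98.1, 76.6 and 78.0 CPM in DCN by day and at 42.1, 42.0 and 42.5 CPM by night. The night values were nearly equal and all below the day values. Its log2 fold change was -1.0002 ± 0.11 (SE, edgeR adjusted p = 0.118), and -0.88 ± 0.07 without day replicate 1. In the model of all 24 in vivo libraries its adjusted p was 0.192 (edgeR). It was -1.38 ± 0.14 in Control and -0.69 ± 0.28 in Sham (edgeR adjusted p = 0.135). The SCGX night libraries spread from 41.6 to 118 CPM.

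ENSRNOG00000019018 was at 74.6, 77.5 and 76.9 CPM in DCN by day and at 51.9, 47.7 and 54.5 CPM by night. The groups were separated, as they were in Control and SCGX, while Sham night replicate 3 reached 103 CPM. The log2 fold change was -0.58 ± 0.07 in DCN (SE, edgeR adjusted p = 0.145), and -0.59 ± 0.08 without day replicate 1. It was -0.56 ± 0.10 in Control, -0.06 ± 0.32 in Sham and -0.48 ± 0.06 in SCGX, and DCN differed from Control by -0.04 ± 0.12 (edgeR interaction, adjusted p = 0.882). In the model of all 24 in vivo libraries the adjusted p of ENSRNOG00000019018 was 0.244 (edgeR). DESeq2 put all 4 identified genes below adjusted p 0.05. It used the same 6 libraries in which they were chosen, so this is no separate support.

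**Figure D5:**
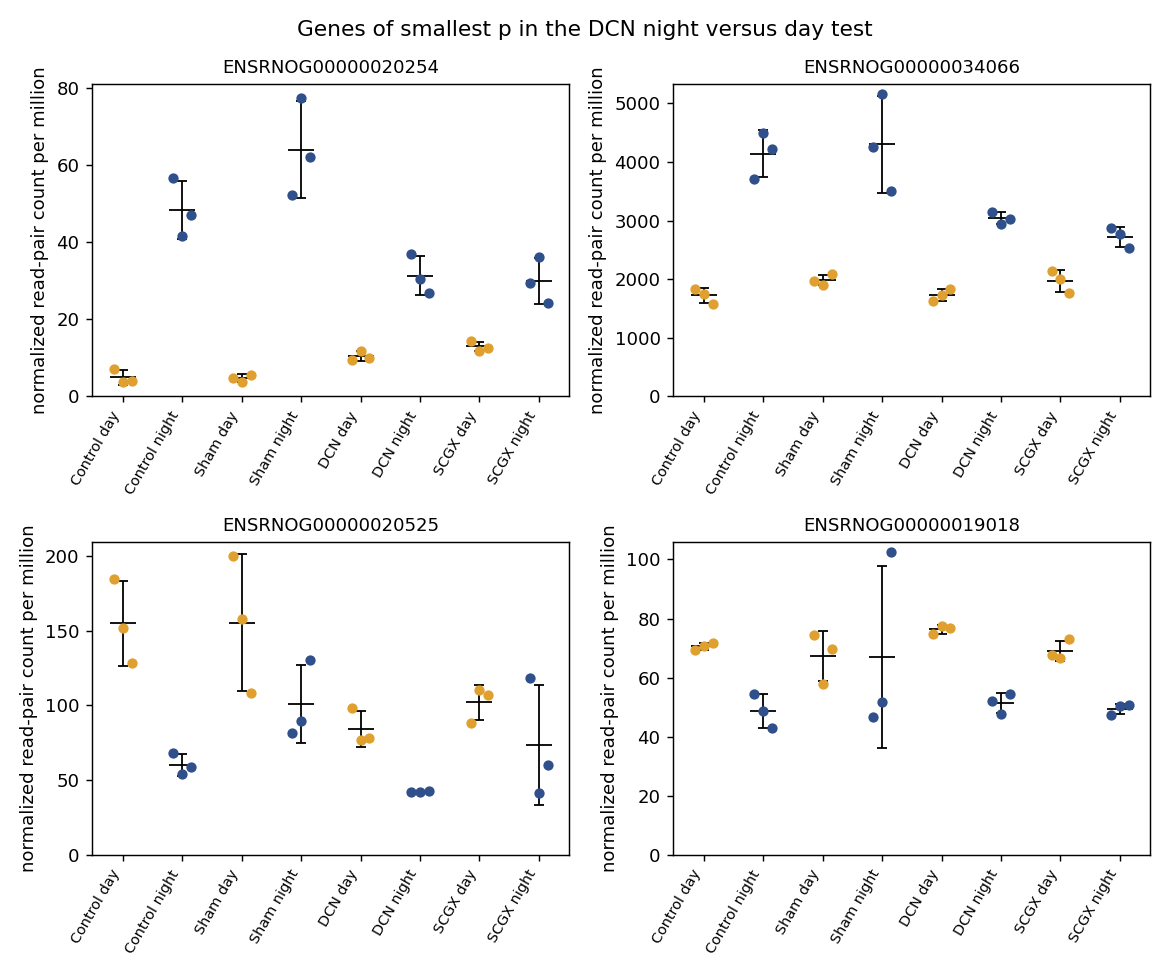
Normalized read-pair counts (y axes, CPM) of the 4 identified genes in each in vivo library (points, orange for day and blue for night), with the group mean and SD (black, n = 3). In each panel the 3 DCN night libraries do not overlap the 3 DCN day libraries, which the choice by smallest p favors.

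When all 24 in vivo libraries shared 1 model, 21 genes (0.132%) passed the DCN night/day contrast at adjusted p < 0.05, 17 that rose and 4 that fell at night, and 0 passed at adjusted p < 0.001. Their absolute log2 fold changes ran from 0.41 to 1.87. ENSRNOG00000020254 and ENSRNOG00000034066 were among those that rose (adjusted p = 0.00267 for both). Night and day libraries were separated in DCN for all 21, beside 8.31% of all genes higher and 6.82% lower. The genes were called on these same libraries, so this separation is no separate support. Of the 21, 20 differed in the same direction at adjusted p < 0.05 in Control, a level that 35.2% of all genes reached there. Of these 20, 18 had the larger difference in Control. The difference from Control itself passed at adjusted p < 0.05 for 11, beside 2620 of all 15834 genes tested. Of the 21, 2 were night genes. Without DCN day replicate 1 this model called 6 genes, 5 of them among the 21, and without Sham night replicate 3 it called 57.

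Among the 21, 1 gene fell in DCN (log2 fold change -0.70 ± 0.13, SE) and was higher at night in Control (0.36), and its difference between DCN and Control passed the interaction test (edgeR adjusted p = 5.65e-04). Another had log2 fold changes of 1.87 in DCN and 1.94 in SCGX against 0.72 in Control, with 1.45 in Sham, and its interaction between DCN and Control did not pass (edgeR adjusted p = 0.0627). Both were singled out after their values were seen.

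Whether the night/day effect in DCN differed from that of other groups was tested as an interaction of group and time. Against Sham, 267 of 16049 genes (1.66%) had a different night/day effect in DCN at adjusted p < 0.001, and against Control 539 of 15834 (3.4%). These comparisons share the DCN libraries. Of the 267, 202 were higher at night in Sham with a smaller or reversed difference in DCN, and 65 were lower at night in Sham with a smaller or reversed difference. The DCN estimate had the opposite sign in 82 of the 267, with an unadjusted p below 0.05 in 7 of these. With scaling by library size alone, 162 of 401 rather than 65 of 267 interactions against Sham were positive, and 239 of 580 rather than 113 of 539 against Control. Of the 267 called against Sham, and of 538 called against Control and tested in both groups, 0 had a larger difference of the same sign in DCN. The night genes made up 108 of the 267 and 122 of the 539, and 11 and 9 of the 14 day genes were included. These lists were chosen for large differences in the same Control and Sham libraries. That choice favors their being called, so these counts are a description and no separate support. Without DCN day replicate 1 the counts were 167 against Sham and 448 against Control.

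DCN and SCGX glands, which both lack central input, did not differ in any single gene that passed the test. The edgeR interaction gave 0 of 15779 genes at adjusted p < 0.001 (0%) and 0 at adjusted p < 0.05, with 1676 at an unadjusted p below 0.05, 809 positive (5.13%) and 867 negative (5.49%). DESeq2 called 2 genes at adjusted p < 0.001. Among 144 night genes, the DCN value exceeded the SCGX value for 128, with a median excess of 0.53 beside -0.01 over all genes tested. At an unadjusted p below 0.05, 76 of the 144 (52.8%) were positive and 1 was negative. Without DCN day replicate 1 the excess was 0.51, with 133 of 144 positive, 73 of them at an unadjusted p below 0.05. In SCGX by itself the median of the night genes was -0.07, with 5 higher and 51 lower at an unadjusted p below 0.05.

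The night genes were split by their response in culture, where NE, the transmitter of the sympathetic endings, was given directly. Of the 146 night genes, 50 were also raised by NE in culture at adjusted p < 0.001 and FC > 4. In DCN 47 of these were tested and had a median night minus day log2 fold change of 0.27, with 38 higher at night. In SCGX the same list had a median of -0.53, with 38 of 49 lower at night. At an unadjusted p below 0.05, 26 (53.1%) were lower, beside 8.01% of all genes tested in SCGX. The DCN minus SCGX difference of this list had a median of 0.73, and 29 of 48 were positive at an unadjusted p below 0.05 with 0 negative. The other 96 night genes had medians of 0.45 in DCN and 0.01 in SCGX, and a DCN minus SCGX median of 0.50. Without DCN day replicate 1 the DCN medians were 0.29 for the NE list and 0.43 for the others, and the DCN minus SCGX medians 0.82 and 0.45.

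With DBcAMP, which acts past the receptor, the values were similar. The 50 tested night genes raised by it had a median of 0.25 in DCN and -0.57 in SCGX, and 36 of 51 DCN minus SCGX differences were positive at an unadjusted p below 0.05 with 0 negative. The other 93 had 0.48 in DCN and 0.05 in SCGX. These DCN medians were 0.28 and 0.45 without day replicate 1. In DCN the responsive genes had the smaller medians, although their Control medians were larger. These were 3.29 against 2.92 for DBcAMP and 3.40 against 2.89 for NE. The DCN quartiles overlapped, at 0.09 and 0.62 for the NE list against 0.14 and 0.61 for the other night genes. For DBcAMP they were 0.05 and 0.45 against 0.16 and 0.62. Without day replicate 1 the upper quartile was higher in the NE list, 0.69 against 0.57, and lower in the DBcAMP list, 0.51 against 0.59. Without night replicate 3 the DCN medians were 0.19 for the NE list and 0.40 for the other night genes, and 0.14 for the DBcAMP list and 0.45 for its remainder. Whether these lists differ in DCN or between DCN and SCGX was not tested.

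In SCGX, 278 of 15552 genes (1.79%) passed between night and day at adjusted p < 0.05, and 277 of these were tested in DCN. Of 162 that were higher at night in SCGX, 108 were higher in DCN, 25 of them at an unadjusted p below 0.05 and 1 opposite. Over all genes tested 48.4% were higher and 4.59% were so at that p. Of 115 that were lower, 77 were lower in DCN, 19 of them at an unadjusted p below 0.05 and 2 opposite, beside 4.4% of all genes lower at that p. The DCN medians were 0.10 and -0.12, beside 0.68 and -0.53 in SCGX. They were 0.08 and -0.03 without day replicate 1, with 105 of 163 and 64 of 115 genes in the SCGX direction.

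The lists that mark tissue rather than time were examined in the same way. The 177 tested pineal-enriched genes had a median night minus day log2 fold change of 0.03 in DCN, with 10 higher and 7 lower at an unadjusted p below 0.05, or 5.65% and 3.95%, near the 4.59% and 4.4% of all genes. The median was -0.01 without day replicate 1. The mixed-tissue genes had a median of -0.89 over 947 tested in DCN, with 146 lower and 7 higher at that p, and this became -0.06 over 741 genes, 23 lower and 17 higher, once day replicate 1 was left out. Of the 546 genes that stood out in that library, 130 (23.8%) were lower at night at an unadjusted p below 0.05 with it, beside 4.4% of all genes. Without it 4 of the 354 tested (1.13%) were lower, beside 2.78% of all genes. The 546 were chosen for high values in day replicate 1, so these counts follow from that choice and are no separate support. Only 2 of the night genes and 0 of the day genes were mixed-tissue genes.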

How the data were processed

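Stranded, ribosomal-RNA-depleted libraries of pooled glands were sequenced and, per the labels, aligned to rn4 with STAR 2.3.1y. The authors assigned read-pairs to genes under the union rule and deposited raw counts, 1 whole number for each gene and library. Deposited RPKM values were not used. Here, night and day were compared within the 6 DCN libraries with edgeR 4.0.16 in R 4.3.3 (TMM scaling, quasi-likelihood test, Benjamini-Hochberg adjustment over all genes tested), keeping genes whose normalized count averaged 5 or more. Interactions of group and time used 12 libraries each. CPM values are TMM-scaled, and log2 levels add a prior count of 2. Culture comparisons set 3 treated against 3 untreated libraries. The fitting was tested on simulated data.

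Members and lists were chosen with earlier results of these data known. The rule for identified genes gave the 2 smallest p in each direction, since no identifier matched a symbol. Mixed-tissue and pineal-enriched genes differed more than 8-fold between both pineal pools and the mixed tissue, with a normalized count above 30 on the higher side. DESeq2 1.42.0, other scalings and filters, a model of 24 libraries, a replicate block and omission of single libraries were tried. In vivo libraries held 12985072 to 18504240 read-pairs. Same-group libraries differed by more than sampling noise. Alignment and counting were not repeated.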

Additional observations from a re-analysis of the deposited data

Results flagged for a closer look

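The night/day effect differed between DCN and Sham glands for 267 genes and between DCN and Control glands for 539 genes, by the interaction test at adjusted p < 0.001 (edgeR). The largest share of these were genes whose increase at night was smaller in DCN. For ENSRNOG00000020254 the interaction against Sham was -2.17 on the log2 scale (edgeR adjusted p = 4.60e-04), although this gene kept separated night and day libraries in DCN.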

How the results depend on the processing

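The DCN night/day contrast had 0 genes at adjusted p < 0.001 and at adjusted p < 0.05 under both other scalings, a minimum of 10 read-pairs in every library, and each omission of 1 DCN library (0 to 0). DESeq2 gave 27 and 105 genes, and testing without a count filter gave 5 at adjusted p < 0.05. The model of 24 libraries gave 0 and 21. Chosen after seeing the data, its fits without DCN day replicate 1 gave 0 and 6, and without Sham night replicate 3 gave 1 and 57. Interactions against Sham numbered 1007 with DESeq2, 401 with library size only, 884 in the model of 24 libraries and 120 to 360 with 1 library left out. They moved by over 1.5 times on leaving out any DCN library except night replicate 3, or any Sham day library. Those against Control numbered 1326 with DESeq2 and 309 to 571 with 1 library left out. They moved by over 1.5 times on leaving out DCN night replicate 1 or 2, Control day replicate 1 or 3, or Control night replicate 2 or 3. Those against SCGX numbered 0 to 0 with 1 library left out and 2 with DESeq2. The night gene median ran from 0.27 to 0.45 and the day gene median from -0.42 to -0.09 with 1 library left out, and both kept their sign under each alternative fitted with edgeR. DESeq2 was not run for these medians. The cause of these changes was not tested.

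The replicate numbers were not treated as pairs. Same-numbered day and night libraries had correlations of deviations of -0.09, 0.20 and -0.07, and differently numbered ones from -0.25 to 0.28. So few libraries cannot exclude pairing. With the replicate block the biological coefficient of variation in DCN was 17.3% rather than 20.1%. The DCN contrast then gave 0 genes at either threshold, and the interactions numbered 125 against Sham, 409 against Control and 0 against SCGX.

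With 3 pools per group, the 95% interval in DCN reached a median of 0.37 on the log2 scale to either side of the estimate. No single gene passed edgeR's test of the 6 libraries with the count filter at adjusted p < 0.05, while DESeq2 called 105. An exact permutation test of 3 against 3 cannot go below 0.1.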

Other observations

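Across 15342 genes tested in both, the night minus day log2 fold changes of DCN and Control had Pearson's r = 0.25 and Spearman's rho = 0.31, and 0.32 and 0.28 over 15280 genes without DCN day replicate 1. Between DCN and Sham, r was -0.34 and rho 0.06 over 15608 genes, and 0.20 and 0.18 over 15403 genes without that library. These are descriptions across genes, which are not independent replicates, and Sham night replicate 3 holds raised levels of the same mixed-tissue genes. In Sham the median night minus day log2 fold change of 1000 tested mixed-tissue genes was 0.85, beside -0.89 for 947 in DCN.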
